A study of Mus musculus with 39 samples.

Results

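Punches of the mouse nucleus accumbens (NAc) differed in how much transcript of Mbp, the gene of myelin basic protein, they held. The 6 NAc libraries with the highest Mbp level were compared with the 6 with the lowest, out of 19 NAc libraries and 39 libraries in the series. The 12 libraries were selected on that one measured value, taken as Mbp reads scaled to a fixed total of reads counted in genes (CPM), with no regard to genotype. Mbp itself is therefore left out of the results, and every other difference between these NAc groups is a description with no test.

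The series was made to look for genes under the control of LMO4, a LIM-only transcription cofactor, and sampled the NAc and the basolateral amygdala (BLA) of 20 C57BL/6J mice aged 8 to 12 weeks. The mice were wild type (11) or carried 1 gene-trap allele of Lmo4 (9, Lmo4gt/+), and both regions were sequenced in 19 of them. All 6 Mbp-high NAc libraries came from wild-type mice (numbered 129, 133, 134, 135, 136 and 160). The Mbp-low libraries came from 4 Lmo4gt/+ mice (122, 128, 147 and 157) and 2 wild-type mice (139 and 156). The 7 libraries between the groups came from 5 Lmo4gt/+ and 2 wild-type mice. Each library is 1 mouse and 1 punch, cut from a 300 µm frozen section, and the labels give neither sex nor litter nor batch. NAc library 122 is mutant by its title and wild type by its genotype field, and was kept as Lmo4gt/+ as its title has it.

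Mbp stood at 2302 to 3107 CPM in the Mbp-high libraries (median 2582) and at 1241 to 1765 CPM in the Mbp-low libraries (median 1491). The ratio of the means was 1.76. There was no step at either edge of the selection. The lowest Mbp-high library had 2302 CPM and the next library outside the group 2269 CPM, while the highest Mbp-low library had 1765 CPM and the next one outside 1808 CPM. With the TMM scaling factors that the other genes carry here, library 149 (Lmo4gt/+), one of the 7 between the groups, would rank 6 of 19 and Mbp-high library 136 would rank 7, at 2289 and 2281 CPM, and the Mbp-low group would be the same 6.

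Myelin is the lipid-rich membrane that oligodendrocytes wrap around axons, and bundles of such axons make up white matter. The NAc is grey matter built mainly of GABAergic medium spiny neurons, and it lies around and beside fibre tracts such as the anterior commissure. Mature oligodendrocytes carry large amounts of a small set of transcripts for myelin proteins and for the enzymes of galactolipid synthesis, while their precursors express Pdgfra and Cspg4 and little of the myelin set. In bulk tissue fewer cells of a type and less RNA per cell cannot be told apart.

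The stretches just upstream of 3 of the genes counted higher, which are followed library by library further on, are shown as they stand in RefSeq on mouse build GRCm38.p6, 250 bases each, 5′ to 3′ on the gene's strand. Mog is a protein of the outer myelin surface, Mobp a small basic protein of compact myelin, and Hapln2 a link protein of the perinodal matrix. Capitals mark 2 short motifs looked for on both strands, ACAAAG, a core of the sites that SOX proteins such as SOX10 bind, and CTGGNAC, which covers the stretch bound by MYRF, the regulator of myelin genes. The Mog stretch (chr17:37023399-37023648, minus strand) held 1 CTGGNAC match, the Mobp stretch (chr9:120149492-120149741, plus strand) held 6 ACAAAG matches, and the Hapln2 stretch (chr3:88027512-88027761, minus strand) held 1 CTGGNAC match. No match of one motif overlapped one of the other in them. These 3 are examples, and of 58 such stretches of counted genes ACAAAG was in 11 and CTGGNAC in 15.
Mog: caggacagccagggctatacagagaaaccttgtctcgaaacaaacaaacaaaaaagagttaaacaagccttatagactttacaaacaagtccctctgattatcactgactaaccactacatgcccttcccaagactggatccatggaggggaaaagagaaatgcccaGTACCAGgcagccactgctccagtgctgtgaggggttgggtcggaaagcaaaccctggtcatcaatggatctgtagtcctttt
Mobp: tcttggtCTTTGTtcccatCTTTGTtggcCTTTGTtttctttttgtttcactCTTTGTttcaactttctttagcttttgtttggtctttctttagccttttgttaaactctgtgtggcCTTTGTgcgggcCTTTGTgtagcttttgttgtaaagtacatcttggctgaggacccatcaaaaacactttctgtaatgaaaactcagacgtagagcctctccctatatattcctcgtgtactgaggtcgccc
Hapln2: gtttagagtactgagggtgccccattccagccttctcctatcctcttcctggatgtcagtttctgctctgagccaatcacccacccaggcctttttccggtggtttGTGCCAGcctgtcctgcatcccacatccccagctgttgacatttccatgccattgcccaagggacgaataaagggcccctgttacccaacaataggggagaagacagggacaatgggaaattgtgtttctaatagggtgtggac

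Read totals in genes ran from 22991497 to 31997240 in the Mbp-high and from 24509390 to 41326396 in the Mbp-low libraries. Reads outside genes made up 27.9% to 32.8% in the Mbp-high and 30.8% to 33.3% in the Mbp-low libraries. Mitochondrial transcripts made up 2.68% to 3.60% of gene reads in the Mbp-high and 2.85% to 3.78% in the Mbp-low libraries. Markers of the striatum were present as the NAc label has it. Drd2, the D2 dopamine receptor of striatal neurons, lay between 94.9 and 207 CPM in the Mbp-high libraries and between 108 and 199 CPM in the Mbp-low libraries, against 0.883 to 33.4 CPM in the BLA. NAc libraries 134 (Mbp-high) and 122 (Mbp-low) stood apart in Slc17a7, the vesicular glutamate transporter of cortical and amygdalar neurons, with 946 and 549 CPM, against at most 190 CPM in the other 17 NAc libraries and 1489 CPM or more in the BLA. Counts, list medians and the genes that changed most without them are given beside the results.

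The Mbp-high punches held more of most myelin transcripts, and of a set of genes on no list used here, than the Mbp-low punches. A gene was counted as higher when all 6 Mbp-high libraries lay above all 6 Mbp-low libraries and its fold change was at least 1.5. Of 16886 genes, 86 met this (0.509%), and 187 (1.11%) had ranges apart in that direction at any fold. Mbp chose the libraries, so nothing is read from these shares beyond the description. Of the 86 genes, 37 were members of the oligodendrocyte lists, 1 was on another list (Foxj1) and 48 were on no list. The 37 came from 87 oligodendrocyte list members tested. Their log2 fold changes ran from 0.59 to 1.45 with a median of 0.72. In 83 of the 86 the median of the 7 libraries left between the groups also lay between the medians of the groups. Without libraries 122 and 134, 83 genes were counted, of which 64 were among the 86, so that 22 of the 86 were no longer counted. Of the 37 oligodendrocyte list members 26 were still counted, and the other 11 had log2 fold changes of 0.50 to 0.58, under the 0.585 of a 1.5-fold change. With libraries ranked by Mbp with TMM factors, 94 were counted, of which 71 were among the 86. Of the 86 genes, 58 had a stretch in the RefSeq table of upstream sequence. ACAAAG was in 19% of these (11) and CTGGNAC in 25.9% (15), while over the 11211 stretches of all genes tested the shares were 11.7% (1312) and 15.6% (1752). These matches are letters in a window and say nothing of binding.

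Mog (ENSMUSG00000076439.12, a protein-coding gene on the minus strand of chromosome 17, NCBIM37 positions 37147691 to 37160343), whose protein sits on the outermost myelin layer and whose upstream stretch is printed above, had 84.0, 83.7, 69.6, 68.7, 75.6 and 61.4 CPM in the Mbp-high libraries, in falling order of their Mbp. It had 47.1, 45.8, 43.6, 39.1, 38.4 and 34.9 CPM in the Mbp-low libraries in the same order. The groups did not overlap, and the Mbp-low libraries followed the order of their Mbp exactly. The log2 fold change was 0.83 ± 0.09. Here and below ± after a fold change or slope is a standard error worked back from edgeR. It is the absolute log2 value over the square root of the quasi-likelihood F statistic. The level averaged 73.8 ± 8.98 CPM in Mbp-high and 41.5 ± 4.75 CPM in Mbp-low libraries (SD, n = 6 each).

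**Figure D1:**
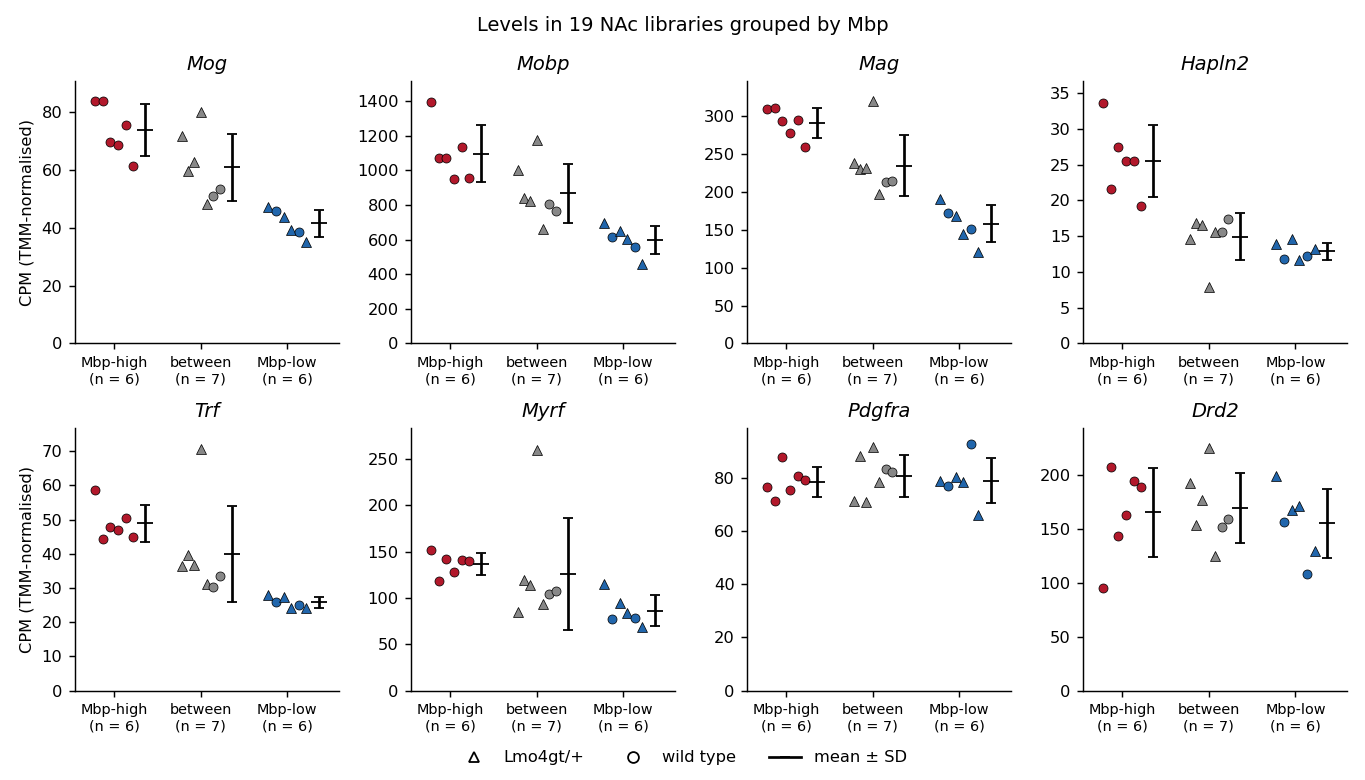
CPM (y axis, linear, from 0) of 8 genes in the 6 Mbp-high, 7 intermediate and 6 Mbp-low NAc libraries, in falling order of Mbp within each group, with triangles for Lmo4gt/+ and circles for wild-type mice and bars for the mean ± SD. Mog, Mobp, Mag, Hapln2, Trf and Myrf separate the outer groups, Pdgfra and Drd2 do not, and the intermediate library 149 stands high in Trf (70.8 CPM) and Myrf (260 CPM) and low in Hapln2 (7.85 CPM).

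The structural proteins of compact myelin were higher almost as a block. Of 12 tested, 11 were counted, with a median log2 fold change of 0.79 against 0.01 over all genes tested. Mobp (ENSMUSG00000032517.16, a protein-coding gene on the plus strand of chromosome 9, NCBIM37 positions 120058860 to 120090602) had 1398, 1072, 1073, 948, 1137 and 954 CPM in the Mbp-high libraries. It had 694, 618, 648, 604, 556 and 462 CPM in the Mbp-low libraries. The lowest Mbp-high library was well clear of the highest Mbp-low one, and the log2 fold change was 0.88 ± 0.11. The largest fold change of the list was in Gjb1, the connexin 32 of oligodendrocyte gap junctions, with 12.4 ± 1.64 CPM in Mbp-high and 6.61 ± 1.56 CPM in Mbp-low libraries (0.91 ± 0.15). The connexin gene Gjc3 (0.60 ± 0.08) was counted too, as were the tetraspan proteins Mal (0.78 ± 0.10), Pllp (0.87 ± 0.09) and Tspan2 (0.61 ± 0.11). The tight junction claudin Cldn11 (0.81 ± 0.13), the membrane protein Opalin (0.85 ± 0.13) and the cytoskeletal protein Ermn (0.73 ± 0.08) were also among those counted. Pmp22, better known from peripheral myelin, was the exception (0.46 ± 0.14), with 9.89 to 16.4 CPM in Mbp-high and 8.99 to 13 CPM in Mbp-low libraries, which overlap. Summed over the 12 genes, the list held 4105 to 5369 CPM in Mbp-high and 2106 to 3206 CPM in Mbp-low libraries.

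Fewer of the proteins at the axon-facing and outer membranes were counted. Of 12 tested, all 12 lay above 0, 7 had ranges apart and 5 were counted, with a median of 0.60. Hapln2 (ENSMUSG00000004894.10, chromosome 3, positions 87825672 to 87831505, minus strand), whose upstream stretch is shown above, had 33.6, 21.6, 27.4, 25.6, 25.5 and 19.2 CPM in the Mbp-high libraries. In the Mbp-low libraries it had 13.9, 11.8, 14.6, 11.6, 12.2 and 13.1 CPM. Its log2 fold change was 0.99 ± 0.12, and the 7 intermediate libraries reached at most 17.5 CPM, below every Mbp-high library. Mag, the adhesion protein that faces the axon, had 259 to 310 CPM in Mbp-high and 121 to 191 CPM in Mbp-low libraries (0.88 ± 0.09). Cnp, the phosphodiesterase of the non-compacted channels, had 445 to 565 CPM in Mbp-high and 262 to 394 CPM in Mbp-low libraries (0.71 ± 0.09). The orphan receptor Gpr37 was counted as well (0.62 ± 0.09). Ninj2, a low-level adhesion gene, had the largest fold change of the list (1.03 ± 0.36) but overlapping ranges of 0.891 to 1.64 CPM in Mbp-high and 0.238 to 1.03 CPM in Mbp-low libraries. At the other end were Cadm4 (0.19 ± 0.13), Nfasc (0.28 ± 0.08) and Jam3 (0.28 ± 0.08), of which Nfasc is also made by neurons. Jam3 and Cntn2 (0.57 ± 0.09) had ranges apart at fold changes under the limit.

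Most enzymes that make myelin lipid were higher, and those of cholesterol synthesis differed less. Of 12 enzymes and lipid-handling genes of the galactolipid, very long chain fatty acid and acetate routes, 5 were counted (median 0.58). Ranges were apart in 8 of the 12, and 11 lay above 0. Gal3st1 (0.56 ± 0.11), Gltp (0.51 ± 0.08) and Cers2 (0.45 ± 0.08) had ranges apart at fold changes under the limit. Ugt8a, which makes galactosylceramide, had 78.8 to 101 CPM in Mbp-high and 45.5 to 68.3 CPM in Mbp-low libraries (0.69 ± 0.09). Fa2h, which hydroxylates its fatty acid, had 45.8 to 58.0 CPM in Mbp-high and 26.1 to 35.3 CPM in Mbp-low libraries (0.78 ± 0.08). Aspa, which frees acetate from N-acetylaspartate, was at 0.79 ± 0.12, the elongase Elovl7 at 0.59 ± 0.09 and Enpp2, the autotaxin that makes lysophosphatidic acid, at 0.63 ± 0.09. The fatty acid desaturase Fads2 lay at -0.03 ± 0.09. None of 19 cholesterol synthesis genes was counted, against 0.509% of all genes tested. The median of the 19 was 0.10 (from -0.06 for Dhcr7 to 0.22 for Insig1). Above 0 lay 15 of the 19, against 8700 of the 16886 genes tested. The 19 genes summed to 799 to 1155 CPM in Mbp-high and 801 to 1020 CPM in Mbp-low libraries. Cholesterol synthesis is shared by all brain cells, unlike the galactolipid route. Whether this bears on these values was not tested.

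The transcription factors of the lineage differed less than its myelin genes. Of 11 tested, 9 lay above 0, 5 had ranges apart and 2 were counted (median 0.35). Myrf, the factor that switches on myelin genes, had 118 to 152 CPM in Mbp-high and 68.5 to 116 CPM in Mbp-low libraries (0.66 ± 0.11). Sox10, expressed through the whole lineage, had 57.6 to 70.0 CPM in Mbp-high and 38.9 to 47.5 CPM in Mbp-low libraries (0.62 ± 0.07). Without libraries 122 and 134 both were at 0.57, under the limit, and 0 of 11 were counted. Olig2 had 28.6 to 39.1 CPM in Mbp-high and 23.1 to 28.4 CPM in Mbp-low libraries, ranges that just failed to meet, at a fold change under the limit (0.35 ± 0.09). Olig1 (0.48 ± 0.10) and Zfp536 (0.53 ± 0.09) also had ranges apart at fold changes under the limit. Tcf7l2, a Wnt pathway factor that neurons of neighbouring regions also express, was the lowest (-0.28 ± 0.23).

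Among genes of oligodendrocyte metabolism, cytoskeleton and signalling, 12 of 24 were counted and all 24 lay above 0 (median 0.64). Trf, the iron carrier transferrin, had 58.8, 44.3, 47.9, 46.9, 50.5 and 44.8 CPM in the Mbp-high libraries. It had 27.9, 25.8, 27.5, 24, 25.1 and 24.2 CPM in the Mbp-low libraries. The spread within either group was small beside the gap between them (0.92 ± 0.08). Serpinb1a, a protease inhibitor (0.89 ± 0.14), Anln, a septin scaffold (0.83 ± 0.14), Evi2a, a membrane protein (0.83 ± 0.14), S1pr5, the oligodendrocyte receptor for sphingosine 1-phosphate (0.81 ± 0.10), and Apod, a lipid-carrying lipocalin (0.80 ± 0.11), were at similar fold changes. Klk6, a kallikrein protease of oligodendrocytes at very low level, had the largest value (1.34 ± 0.38), with overlapping ranges of 1.37 to 5.37 CPM in Mbp-high and 0.576 to 1.55 CPM in Mbp-low libraries. Efnb3, an ephrin of the midline, had the smallest (0.15 ± 0.07).

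Most precursor genes lay near 0. Of 16 genes of precursors and newly formed oligodendrocytes, 2 were counted and the median was 0.10. The 2 were Bcas1 (0.77 ± 0.10), which continues into myelinating cells, and Enpp6 (0.71 ± 0.16), a choline phosphodiesterase of newly formed cells. Enpp6 had 17.5 to 22.3 CPM in Mbp-high and 6.16 to 15.1 CPM in Mbp-low libraries. The precursor markers Pdgfra (-0.01 ± 0.08) and Cspg4 (-0.04 ± 0.09) showed no such gap. Pdgfra had 71.6 to 88.2 CPM in Mbp-high and 66.2 to 92.9 CPM in Mbp-low libraries. Ptprz1 was lowest (-0.13 ± 0.09), and Bmp4 highest (0.81 ± 0.36) at about 1 CPM with overlapping ranges. Summed, the list held 1231 to 1359 CPM in Mbp-high and 1054 to 1291 CPM in Mbp-low libraries.

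**Figure D2:**
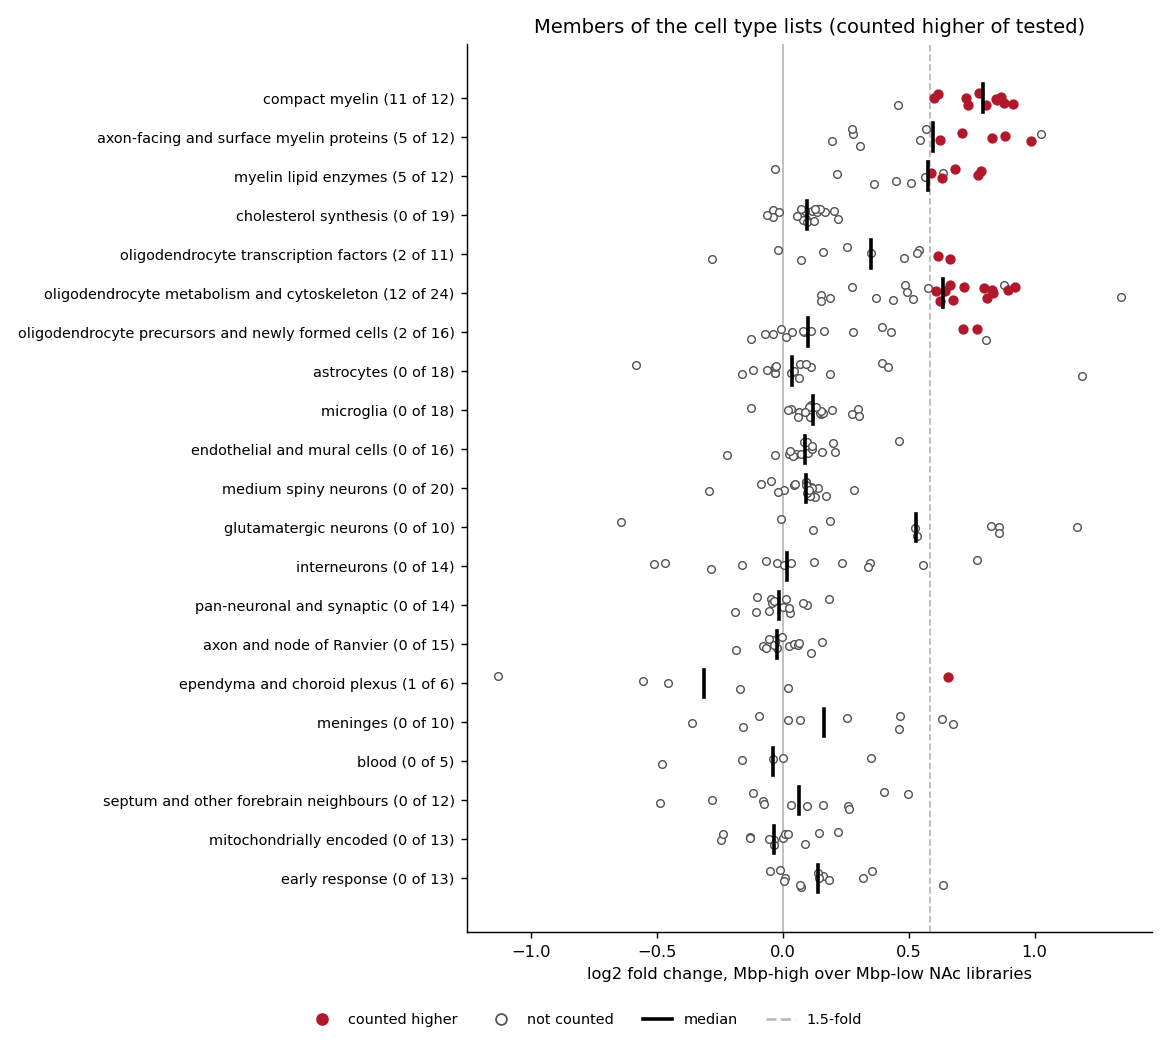
log2 fold change (x axis, Mbp-high over Mbp-low NAc libraries) of every tested member of 21 gene lists, 1 row a list, with filled points for genes counted higher, bars for list medians and the count of members counted beside each name. Compact myelin has 11 of 12 members filled and a median of 0.79, precursors 2 of 16 with a median of 0.10, and neuron lists none.

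Other glial and vascular lists had no counted member, where 0.509% of all genes tested were counted. Lists of 16 to 18 genes are too short to fall below that share, so nothing is read from the zeros. Astrocyte genes had a median of 0.04 over 18 members, microglial genes 0.12 over 18, and endothelial and mural genes 0.09 over 16. Values above 0 were found in 10 of 18 astrocyte, 17 of 18 microglial and 14 of 16 endothelial and mural genes, against 8700 of the 16886 genes tested. The astrocyte filament gene Gfap, which is strongest in astrocytes of white matter and of the brain's surfaces, was at 1.19 ± 0.23, with 69.6, 59.9, 54.2, 39.9, 22.7 and 37.7 CPM in the Mbp-high libraries. It had 25.3, 17.7, 24.6, 19.1, 19.4 and 18.4 CPM in the Mbp-low libraries. Only Mbp-high library 133 lay within the Mbp-low range. The other astrocyte genes did not follow it, among them the glutamate transporter Slc1a2 (0.03 ± 0.08), the water channel Aqp4 (0.11 ± 0.09) and the connexin Gja1 (-0.03 ± 0.08). Cd44, an adhesion receptor, was lowest (-0.58 ± 0.27). In microglia the fractalkine receptor Cx3cr1 was at 0.11 ± 0.08. The lists summed to 4342 to 5212 CPM in Mbp-high and 4438 to 5060 CPM in Mbp-low libraries for astrocytes, and to 362 to 506 CPM in Mbp-high and 328 to 406 CPM in Mbp-low libraries for microglia.

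Neuronal lists had no counted member either, where 0.509% of all genes tested were counted. None of 20 medium spiny neuron genes was counted (median 0.09, from -0.29 for Isl1 to 0.28 for Rasd2), and their sum was 7391 to 13684 CPM in Mbp-high and 7642 to 12945 CPM in Mbp-low libraries. Mbp-high library 134, first in Mbp, had the lowest sum of the 12, and Mbp-low library 139 the next lowest. Above 0 lay 16 of the 20 genes, and 18 without libraries 122 and 134, against 8700 of the 16886 genes tested. Genes of the axon and the node of Ranvier, the gaps between myelin segments, had a median of -0.02 over 15 members, and none was counted. They include the neurofilament Nefl (-0.02 ± 0.29), the paranodal Cntnap1 (0.16 ± 0.18) and the nodal anchor Ank3 (-0.03 ± 0.08). Pan-neuronal genes had a median of -0.02 over 14 members and interneuron genes of 0.02 over 14. Values above 0 were found in 6 of 15 axon and node, 7 of 14 pan-neuronal, 8 of 14 interneuron and 8 of 10 glutamatergic genes tested. Glutamatergic neuron genes, of which 10 of 14 passed the filter on low counts, had a median of 0.53, none was counted, and standard errors were large (1.72 for Slc17a7 at 1.17), with library 134 far above its group and library 122 far above the other. Without those libraries 9 passed the filter, 0 were counted, the median was 0.58 and Slc17a7 was at 3.54 ± 1.22, while it was at -0.44 without library 134 alone and at 5.14 without library 122 alone. Slc17a7 had 946, 190, 15.3, 5.32, 3.83 and 140 CPM in the Mbp-high libraries, and 4.01, 11.0, 2.32, 8.19, 5.55 and 549 CPM in the Mbp-low libraries.

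**Figure D3:**
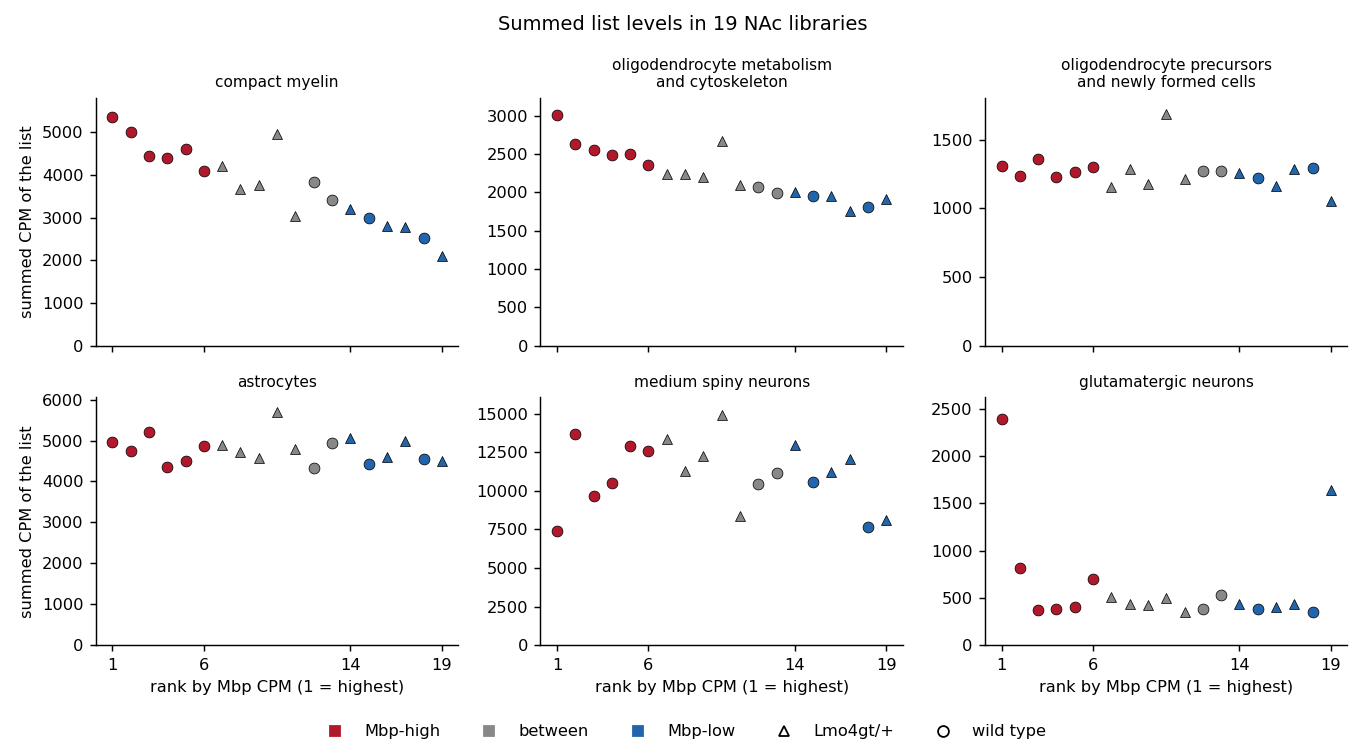
Summed CPM (y axes, from 0) of 6 gene lists in the 19 NAc libraries, ordered from the highest Mbp at the left to the lowest at the right, with triangles for Lmo4gt/+ and circles for wild-type mice. The compact myelin sum is lower toward the right, with library 149 above its neighbours, the precursor, astrocyte and medium spiny neuron sums overlap between the groups, and the glutamatergic sum is highest in libraries 134 (2395 CPM) and 122 (1640 CPM).

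Tissue that could be caught at the edge of a punch was also looked at. Of 12 genes of ependyma and choroid plexus, 6 passed the filter and 1 was counted, Foxj1, the master factor of motile cilia (0.65 ± 0.17), with 4.40 to 6.44 CPM in Mbp-high and 2.39 to 4.02 CPM in Mbp-low libraries. Rarres2, a chemoattractant gene, was at 0.02 ± 0.24 and the other 4 lay below 0 (list median -0.31, lowest -1.13 for Prlr), and the list summed to 33.4 to 57.0 CPM in Mbp-high and 45.9 to 71.1 CPM in Mbp-low libraries. In the Mbp-low libraries 2 of the 12 genes, Folr1 and Kcnj13, had no reads at all. No meningeal (median 0.16 of 10), blood (-0.04 of 5), septal and neighbouring forebrain (0.06 of 12), mitochondrial (-0.03 of 13) or early response gene (0.14 of 13) was counted, where 0.509% of all genes tested were. The prostaglandin D synthase Ptgds, made by meningeal cells and also by oligodendrocytes, had the largest value of the meningeal list (0.67 ± 0.21), with 44.5 to 91.2 CPM in Mbp-high and 24.2 to 53.6 CPM in Mbp-low libraries, which overlap. The meningeal sum was 95.2 to 138 CPM in Mbp-high and 68.0 to 98.9 CPM in Mbp-low libraries. The part that cells other than oligodendrocytes have in the difference was not tested.

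Of the 48 counted genes on no list, the naming rule gave the 12 with the largest fold change at a mean of 5 CPM or more, passing over genes that have only an identifier (1 of these, at 0.79, lay above 7 of the 12). Adamtsl4, a secreted relative of the ADAMTS proteases, led them with 9.80 to 19.3 CPM in Mbp-high and 5.73 to 8.43 CPM in Mbp-low libraries (0.98 ± 0.17). Next came Smco3, a coiled-coil membrane protein (0.97 ± 0.19), and Itgb4, the integrin beta 4 subunit known from hemidesmosomes (0.84 ± 0.12). Itgb4 had 34.8, 28.4, 32.6, 28.5, 34 and 33.2 CPM in the Mbp-high libraries, and 20.6, 14.6, 19.5, 20.9, 18.8 and 12.4 CPM in the Mbp-low libraries. The glycosyltransferase Galnt6 (0.83 ± 0.10), the actin-associated Pdlim2 (0.82 ± 0.16), the proline-rich Prr18 (0.77 ± 0.09), the membrane carboxypeptidase Cpm (0.77 ± 0.12) and the CDC42 effector Cdc42ep2 (0.76 ± 0.13) followed. The last 4 were the mTORC2-associated Prr5l (0.75 ± 0.14), the magnesium transporter family member Nipal4 (0.75 ± 0.17), the carnosine synthase Carns1 (0.75 ± 0.13) and the lysophosphatidic acid receptor Lpar1 (0.74 ± 0.10). Lpar1 binds the lipid that the product of Enpp2, counted above, makes. Genes of the 86 with larger fold changes than these but levels of about 1 to 2 CPM included the apoptosis regulator Pawr (1.45 ± 0.45), Tex52 (1.22 ± 0.31) and the homeobox gene En2 (1.20 ± 0.32), named after their values were seen.

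In the other direction 3 genes were counted (0.0178%), of which 2 have no name in the annotation. That count was between 4 (without Mbp-low library 128) and 15 (without Mbp-low library 157) when each library was left out in turn, and 226 in wild-type libraries alone. The named one was Insl5, an insulin-like peptide gene, with 0.634 ± 0.134 CPM in Mbp-high and 1.12 ± 0.19 CPM in Mbp-low libraries (-0.81 ± 0.29). It was named because the count was so small.

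Genotype and Mbp level went together in these punches. Wild-type mice gave 6 of 6 Mbp-high and 2 of 6 Mbp-low libraries. With library 122 taken as wild type, as its genotype field has it, the split was 6 of 6 against 3 of 6. These are counts over groups formed by Mbp, and no test is read from them. A difference between the Mbp groups and one between genotypes can therefore not be told apart in the full comparison. Lmo4, the trapped gene, had 77.3 to 109 CPM in Mbp-high and 47.0 to 96.3 CPM in Mbp-low libraries (0.51 ± 0.16), under the fold limit and with ranges that overlap, so it was not counted. Library 122 had 72.2 CPM of Lmo4. The other Lmo4gt/+ NAc libraries had 47.0 to 69.7 CPM, and the wild-type ones 69.9 (library 139) to 109 CPM. Which label of library 122 is right was not tested. Because all 6 Mbp-high libraries are wild type, a fold change with genotype as a covariate rests on the 2 wild-type Mbp-low libraries. Named genes that moved by more than 1 SD under it included Lmo4 (to 0.16 ± 0.17), Ninj2 (1.85 ± 0.52), Cd44 (-1.02 ± 0.33) and the striatal Rasd2 (0.70 ± 0.28). Gjb1 (to 1.22), Slc1a2 (0.18) and Slc17a7 (4.73) also moved by more than 1 SD.

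Slopes on Mbp were also computed within each genotype. Over the 10 wild-type NAc libraries alone, all 86 genes had a slope on Mbp above 0, with a median of 0.87 log2 per doubling of Mbp. Over the 9 Lmo4gt/+ libraries alone, 85 of 86 did, with a median of 0.92. Among all genes tested the medians were 0.01 and 0.01, with 51.2% above 0 in either genotype. All of these slopes are descriptions, since the genes were counted for their difference between libraries ranked on Mbp, most of which enter the slopes. For Mog the slope was 0.97 ± 0.10 in wild-type and 1.28 ± 0.23 in Lmo4gt/+ libraries. The exception was Neat1, a nuclear long non-coding RNA (1.22 ± 0.13 in wild-type and -0.30 ± 0.52 in Lmo4gt/+ libraries), which had 62.3 to 101 CPM in Mbp-high and 37.4 to 57.5 CPM in Mbp-low libraries. Lmo4gt/+ library 149 held only 15.1 CPM of it. Hapln2 also differed, at 1.23 ± 0.16 in wild-type and 0.26 ± 0.37 in Lmo4gt/+ libraries, a difference that was not tested. With the 2 wild-type Mbp-low libraries as the only ones on that side the ranges of the 86 genes are apart by construction, and 74 of them reached the fold limit (median 0.75). With genotype as a covariate 74 reached it (median 0.75). Every Mbp-high library is wild type, so that fit rests on the same 2 Mbp-low libraries for its fold changes.

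Whether the mice with Mbp-high NAc punches differed in the other region was asked in their BLA libraries, which had no part in the selection. No gene of 16936 passed (0%) between the BLA of mice with Mbp-high and of mice with Mbp-low NAc, by edgeR's quasi-likelihood test with Benjamini-Hochberg adjustment (lowest adjusted p = 0.998, n = 6 each). At an unadjusted p under 0.05 there were 499 genes, 2.95% of those tested. DESeq2's Wald test also called 0, with 790 genes at an unadjusted p under 0.05. The groups differ in genotype as in the NAc, 6 wild-type mice against 2 wild-type and 4 Lmo4gt/+ mice. With genotype as a covariate 0 genes passed edgeR's test (lowest adjusted p = 0.99998), a fit that rests on those 2 wild-type mice. Of the 86 NAc-higher genes 84 were tested, and their median log2 fold change was 0.05, against -0.0007 over all genes tested. Above 0 lay 56 of the 84. The share of all genes above 0 was not computed here, so nothing is read from the 56. An unadjusted p under 0.05 was reached by 6 of the 84 (7.14%), named here after their values were seen. They were 4 toward higher values (Mog, Fa2h, Trf and Nde1) and 2 toward lower (Cyp27a1 and Dock5). Mog was at 0.27 ± 0.12 in that comparison, against 0.83 ± 0.09 in the NAc. Nearest to the threshold by p, with none of them past it, were Zfp455, Mrpl16 and Il17rb toward higher and Baiap2l1, Ptgdr and Fign toward lower values.

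The BLA also allowed the same question in punches the selection had not used: which genes go with Mbp from one BLA punch to the next. Mbp lay between 543 and 948 CPM in the 20 BLA libraries, all of them under the lowest NAc library. Of 18898 genes, 186 (0.984%) rose and 213 (1.13%) fell with BLA Mbp, with genotype as a covariate (edgeR quasi-likelihood test, Benjamini-Hochberg adjusted p under 0.05). Of the 86 NAc-higher genes 30 rose (34.9%) and 0 fell, 80 had a slope above 0 (49.8% of all genes did), and the median slope was 0.73. These 30 were 16.1% of the rising genes. The oligodendrocyte lists gave 22 of them and 8 were on no list. With the slope taken on Mog in place of Mbp, 1 gene rose and 0 fell by the same edgeR test, and the gene was Cnp, one of the NAc-higher genes. At an unadjusted p under 0.05 there were 1014 rising and 1135 falling genes with Mog, and 39 rising and 0 falling among the 85 NAc-higher genes tested, of which 77 lay above 0.

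Among the genes that rose in the BLA, Mobp had a slope of 1.14 ± 0.12 log2 per doubling of Mbp (edgeR adjusted p = 1.95e-06), Cnp 0.92 ± 0.11 (edgeR adjusted p = 7.95e-06) and Cldn11 0.95 ± 0.13 (edgeR adjusted p = 0.000108). The septin Sept4, of the myelin scaffold, had 0.90 ± 0.13. Of compact myelin genes 6 of 12 rose (median slope 0.82), of surface proteins 5 of 12, among them Mog (1.11 ± 0.19) and Hapln2 (1.09 ± 0.29), and of metabolic genes 7 of 24. Lipid enzymes gave 2 of 12 (Ugt8a and Fa2h), transcription factors 2 of 11 (Sox10 and St18) and cholesterol synthesis 0 of 19. The precursor list gave Bcas1 and Enpp6 as rising, as in the NAc, and Ptprz1 as falling (-0.51 ± 0.13), with a list median of -0.10. Genes on no list that were counted in the NAc and rose in the BLA included Tmem88b (0.92 ± 0.16), Prr18 (0.75 ± 0.15), Itgb4 (1.27 ± 0.32) and Ttyh2 (0.68 ± 0.16). Adamtsl4 was at 1.26 ± 0.37 without passing (edgeR adjusted p = 0.0727), and Smco3 at -0.26 ± 0.33. The 6 NAc-higher genes with a slope under 0 in the BLA were Enpp2, Foxj1, Il1rap, Nfatc2ip, Smco3 and Olfml1, none of them past the threshold. The slope of Enpp2 was -0.59 ± 0.97, with a median of 94.8 CPM and a highest value of 539 CPM over the BLA libraries.

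**Figure D4:**
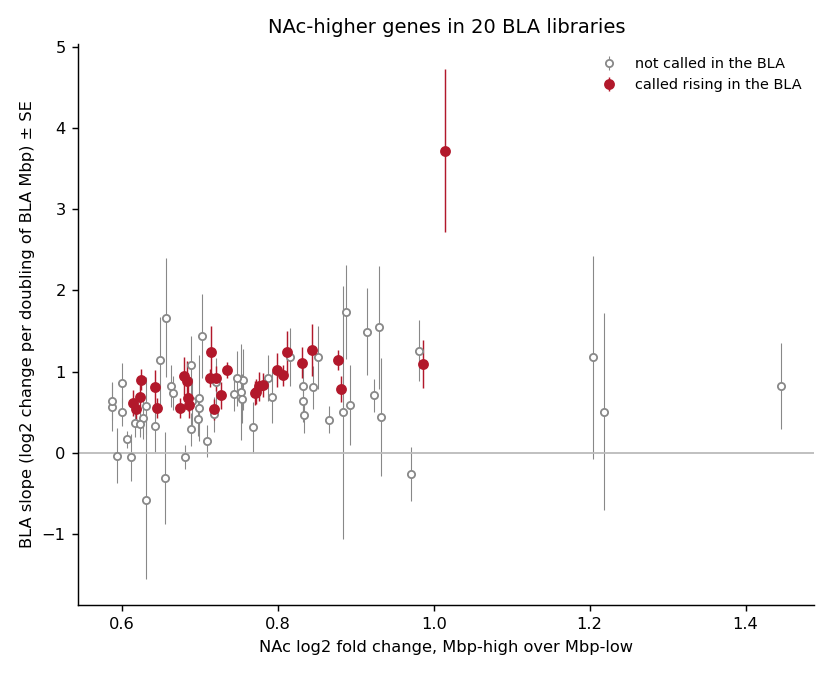
Slope on BLA Mbp over 20 BLA libraries (y axis, log2 per doubling of Mbp, ± SE) against the NAc log2 fold change (x axis, Mbp-high over Mbp-low) for the 86 NAc-higher genes, with filled points for the 30 that rose in the BLA. Points lie above 0 for 80 of the 86.

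Transcripts of striatal neurons were looked at as well. All 20 medium spiny neuron genes had a slope above 0 in the BLA, with a median of 1.22, and 3 of them rose, the opioid peptide genes Penk (5.15 ± 1.20) and Pdyn (4.55 ± 0.83) and the adenylyl cyclase Adcy5 (0.88 ± 0.21). Penk ranged from 13.8 to 365 CPM over the BLA libraries. The list summed to 2709, 2705, 2688 and 2583 CPM in BLA libraries 129, 159, 156 and 149, against at most 2140 CPM in the other 16, and libraries 149, 156 and 129 ranked 1, 2 and 3 of 20 in Mbp while 159 ranked 15. The ependyma and choroid plexus list summed to 657 CPM in BLA library 127, which ranked 16 in Mbp, against at most 183 CPM in the others. The kainate receptor gene Grik4 (1.84 ± 0.28), the decarboxylase Ddc (2.20 ± 0.32) and Nhs (1.52 ± 0.20) rose as well. The genes that fell with the smallest p were Epha4, an ephrin receptor (-0.95 ± 0.13), Iqgap2 (-1.32 ± 0.18), Arhgef28 (-0.70 ± 0.10), the adhesion gene Chl1 (-0.89 ± 0.13), Xkr4 (-0.92 ± 0.14), the calcium channel subunit Cacna2d1 (-0.85 ± 0.13), the adenylate kinase Ak5 (-0.71 ± 0.11) and the angiotensin-(1-7) receptor gene Mas1 (-1.27 ± 0.20). None of these 8 was counted in the NAc. The glutamatergic gene Sv2b (-0.41 ± 0.11), Trpc4 (-0.76 ± 0.15) and Lhx2 (-0.93 ± 0.17) also fell, and the part of neighbouring tissue in the BLA slopes was not tested. Without the 2 libraries farthest from the median Mbp (mice 147 and 149) 42 genes rose and 48 fell, and of the NAc-higher genes 9 rose while 82 of 86 stayed above 0. Without BLA libraries 127, 129, 149, 156 and 159, the 5 with those high sums, 6 genes rose and 10 fell, and of the NAc-higher genes 3 rose while 79 of 86 stayed above 0.

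Mog was also compared across the 2 regions of the 19 mice, as a gene other than Mbp. Over all mice, log2 CPM in the BLA and in the NAc correlated with Pearson's r = 0.575 (permutation p = 0.0104, adjusted p = 0.0207) and Spearman's rho = 0.544 (permutation p = 0.0175, adjusted p = 0.0700). Values were adjusted by Benjamini-Hochberg over the 4 correlations of each kind computed. Without the 2 mice farthest from the median NAc value, r was 0.438 (permutation p = 0.0792) and rho 0.387 (permutation p = 0.126, n = 17), so the relation rests in part on those mice. Within genotypes r passed in Lmo4gt/+ mice (r = 0.794, exact permutation p = 0.00708, adjusted p = 0.0207, and rho = 0.700, exact permutation p = 0.0433, adjusted p = 0.0865, n = 9) and did not pass in wild-type mice (r = 0.215, permutation p = 0.560, and rho = 0.0424, permutation p = 0.919, n = 10). Leaving out the 2 farthest mice of each genotype gave r = 0.696 in Lmo4gt/+ (n = 7) and r = -0.337 in wild-type mice (n = 8). The difference between the genotypes was not tested.

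**Figure D5:**
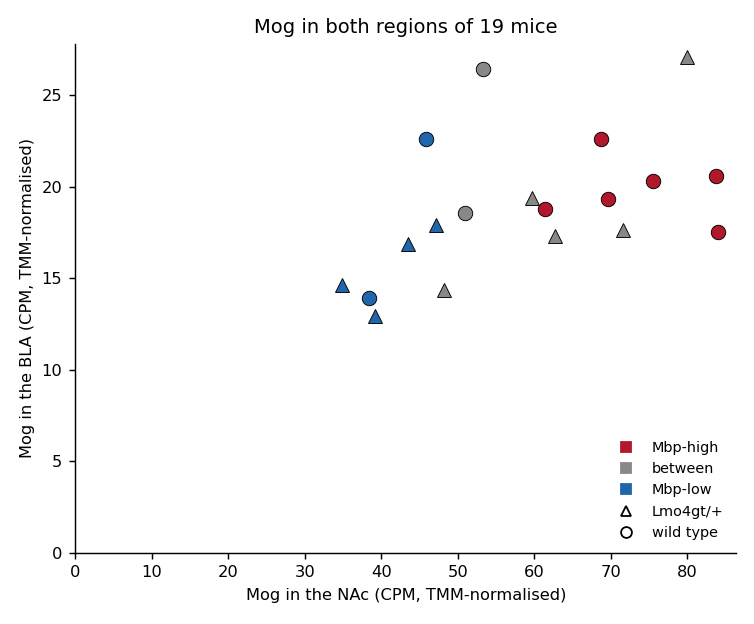
Mog CPM in the BLA (y axis) against Mog CPM in the NAc (x axis) of the same mouse, 19 mice, coloured by the Mbp group of the NAc library, with triangles for Lmo4gt/+ and circles for wild-type mice. The 6 mice with Mbp-high NAc lie between 17.5 and 22.6 CPM in the BLA and overlap with the 6 with Mbp-low NAc, which lie between 13 and 22.6 CPM.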

How the data were processed

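Each of the 39 deposited files lists raw read counts per gene identifier, which the authors made with HISAT2 and HTSeq 0.11.1 on mm9, per the submitters' processing notes, which also name MultiQC 1.7 and DESeq2. No source used here gives the strand setting, so overlapping antisense genes cannot be told apart, and polyA selection is stated in the labels' protocols. Reads outside genes (24.7% to 38.1%) stayed out of library sizes. GENCODE vM1 (NCBIM37) supplied names and positions for 32708 of 51826 identifiers, with older names updated through RefSeq. Printed sequence is from RefSeq on GRCm38.p6, a different build, and no coordinate was converted. Total gene counts ran from 21255934 to 51021670 per library.

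NAc libraries were ranked on Mbp CPM without TMM factors. Fold changes came from edgeR 4.0.16 in R 4.3.3 (TMM factors, a robust glmQLFit, and filterByExpr at its minimum count of 10), and levels are CPM with TMM factors. The BLA comparisons used edgeR's two-sided quasi-likelihood test with Benjamini-Hochberg adjustment over all genes tested (threshold 0.05), with the script tested on simulated data. Correlations used 100000 resamples, or all permutations with fewer than 10 mice (SciPy 1.17.1, Python 3.11.15). DESeq2 1.42.0 was an alternative. The numbers in the titles were taken as mouse numbers, which pair the regions of a mouse and no libraries between the Mbp groups. Any member of the 21 lists could be named, at least those with the largest and smallest value; outside them up to 12 counted genes per direction with a mean of 5 CPM or more, up to 8 called genes per direction of each BLA test, and 3 per direction where none was called. The members, lists and rules were chosen with earlier results of these data known. Of the 303 list genes 1 (Hmgcs1) had no match. Alternatives were other size factors, no filter, Mog in place of Mbp, 5 against 5 libraries, genotype as a covariate, and leaving out libraries. After the data were seen, wild-type libraries alone, slopes within each genotype, the other label of library 122, a ranking on Mbp with TMM factors, list medians without libraries 122 and 134 and the alternatives for named genes that were not counted were added. Results of some genes are not reported here.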

Additional observations from a re-analysis of the deposited data

Results flagged for a closer look

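Levels of 92 groups of 6 libraries were looked at for a single library far from its group, and 9 stood out, where chance flags about 1 in 20. Most involve Mbp-high library 134 or Mbp-low library 122. Slc17a7 was 946 CPM in library 134, far above the other Mbp-high libraries, and 549 CPM in library 122, far above the other Mbp-low libraries. The summed glutamatergic neuron list was likewise 2395 CPM in library 134 and 1640 CPM in library 122, and the summed pan-neuronal list was 9829 CPM in library 134 and 9693 CPM in library 122. Library 134 also had the highest summed cholesterol synthesis genes of the Mbp-high group, at 1155 CPM. Library 122 had the highest summed blood genes of the Mbp-low group, at 52.0 CPM. Summed early response genes were 848 CPM in Mbp-low library 147, above the other Mbp-low libraries. Without libraries 122 and 134, 83 genes were counted higher in Mbp-high punches, of which 64 were among the 86 counted with them.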

How the results depend on the processing

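The 86 genes counted higher in Mbp-high NAc libraries became 82 with DESeq2 size factors, 85 with no filter, 89 with genotype as a covariate, 128 with 5 against 5 libraries, 94 with Mbp ranked by CPM with TMM factors (71 of them among the 86) and 82 to 104 without each library in turn. Ranking by Mog in place of Mbp gave 53, of which 46 were among the 86, and wild-type libraries alone gave 401, of which 74 were, with 2 Mbp-low libraries to clear in place of 6. The fit with the genotype covariate takes its fold changes from those 2 Mbp-low libraries as well. The 3 genes counted lower became 9 with no filter, 5 with Mog, 19 with 5 against 5, 12 without libraries 122 and 134, 5 with the TMM ranking, 226 in wild-type libraries alone and 4 to 15 without each library in turn. The sign of the named genes that were counted higher is largely fixed by how they were chosen. Among 32 named genes that were not counted, 36 of 640 fold changes under an alternative had the other sign, in 11 genes, of which Slc17a7 (1.17, and -0.44 without library 134) was the largest and Cntnap1 (0.16, and -0.02 without library 134) the next, and the largest of the rest was Dhcr7 (-0.06). By more than 1 SD 16 of the 640 moved, in 9 genes, and of 999 fold changes of 50 counted genes 3 did, in 2 genes. BLA genes rising with Mbp (186) were 348 with DESeq2's Wald test, 321 without the genotype covariate, 42 without the 2 farthest libraries, 1 with the slope on Mog and 6 without BLA libraries 127, 129, 149, 156 and 159. Those falling (213) were 355, 345, 48, 0 and 10 under the same settings. Of the NAc-higher genes, the 30 that rose were 9 without the 2 farthest libraries, 1 with Mog and 3 without the 5 libraries, with 82 of 86, 77 of 85 and 79 of 86 above 0. Why these counts fell was not tested, and the slope on Mog used all 20 BLA libraries. The BLA of the same mice gave 0 genes under every alternative run. The correlation of Mog between regions was 0.438 without the 2 farthest mice. No paired analysis was possible because no mouse is in both Mbp groups. Each library held at least 21255934 counts, and 6 punches a group, the overlap of Mbp group with genotype and the selection on Mbp, which leaves it without a test, limit the NAc comparison.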

Other observations

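NAc library 149, an Lmo4gt/+ library that fell between the Mbp groups, stood apart from the other NAc libraries. It ranked 10 of 19 in Mbp by plain CPM (2002 CPM) and 6 of 19 with TMM factors (2289 CPM). With those factors it had 80.0 CPM of Mog, 320 CPM of Mag, 70.8 CPM of Trf and 260 CPM of Myrf. In plain CPM it ranked 7 in Mog (70.0 CPM) and 6 in Mag (280 CPM), within the Mbp-high range, and first in Trf (61.9 CPM) and Myrf (228 CPM), above every Mbp-high library on both scales. It held the lowest Hapln2 (7.85 CPM with TMM factors) and Neat1 (15.1 CPM) of the 19 on both scales, and 38.1% of its reads lay outside genes, the highest share of the 39 libraries.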
